A study of Mus musculus with 6 samples.

Results

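The 10 genes described here encode proteins of the primary (azurophil) granule of neutrophils, or mark the early granulocyte that makes it. They are Mpo, Elane, Prtn3, Ctsg, Ctsc, Srgn, Ms4a3, Serpinb1a, Lyz1 and Lyz2, chosen by name from the 23746 gene loci in the expression tables, and each name matched 1 locus in all 6 libraries. The libraries come from bone marrow of C57BL/6 mice aged 12 weeks in 3 groups: KO (Diap1 -/-), Het (Diap1 +/-) and WT (wild type). Diap1 is an older symbol of the gene for the formin mDia1, which nucleates actin filaments; the labels do not say which part of it was deleted. For each genotype the marrow of 4 mice was combined into a single pool and split in 2. Beads took out the cells that carried both Gr1 and Mac1, surface proteins of granulocytes and monocytes (the Gr1+Mac1+ fraction), and what remained was depleted of committed cells to leave progenitors (the Lin- fraction). Total RNA of both fractions was sequenced, so there is 1 library for each genotype and fraction, and both fractions of a genotype share the same mice. Values are FPKM, fragment numbers divided by transcript length and by the depth of the library, and the range in brackets after a value is the interval deposited with it, which covers counting error only.

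Neutrophils load their granules in the order in which they are made during maturation. The primary granule comes first, at the promyelocyte stage, and it carries myeloperoxidase, serine proteases and lysozyme; the secondary (specific) and tertiary (gelatinase) granules follow in later stages, when transcription of most primary granule genes has already declined. Lysozyme and serglycin are less tied to a stage and are made in monocytes and macrophages as well.

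All 10 genes were lower in the Lin- than in the Gr1+Mac1+ library of every pool, but by very different factors. Serglycin (Srgn) in KO Lin- cells stood at 34.5% of its level in KO Gr1+Mac1+ cells, Mpo at 13.6%, Elane at 2.42% and Lyz1 at 0.483%. In Lin- cells of the Het pool 5 of the 10 were more than 2-fold above WT on the scale used here. Of 8369 genes tested, 1.7% were higher by the rule given below. Lyz2 was at 420 FPKM in Het against 19.0 in WT Lin- cells. In Gr1+Mac1+ cells no pair of genotypes differed 2-fold in any of the 10. The KO Lin- levels were close to those of WT except for the pair of lysozyme genes.

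A few facts about the libraries touch these results. Diap1 itself was at 6.07 (KO), 24.2 (Het) and 36.0 FPKM (WT) in Lin- cells, and at 4.07 (KO), 34.1 (Het) and 57.1 FPKM (WT) in Gr1+Mac1+ cells. Implied fragment totals lay between 9420000 and 10390000 in the Lin- libraries and between 8630000 and 11600000 in the Gr1+Mac1+ libraries. The progenitor receptor gene Kit was at 84.7 (KO), 66.4 (Het) and 72.6 FPKM (WT) in the Lin- libraries, against 14.9, 15.7 and 15.0 FPKM in the Gr1+Mac1+ libraries in the same order. Most markers listed with Kit went the other way. Of 15 granulocyte-monocyte progenitor markers, 2 were higher in Lin- cells and 9 lower, with a median log2 difference of -1.10. Of 14 erythroid markers, 9 were higher in Lin- cells and 4 lower, with a median of 2.24. Over all genes tested 51.5% were higher and 30.3% lower. Itgam, which encodes Mac1, was at 1.31 (KO), 16.9 (Het) and 0.640 FPKM (WT) in the Lin- libraries and between 293 and 311 FPKM in the Gr1+Mac1+ libraries. The Het Lin- library thus stood apart. The summed FPKM of 25 genes listed as secondary and tertiary granule content was 8501 in it, against 138 in KO and 113 in WT Lin- cells. Of the 8501, S100a8 gave 2935 and S100a9 gave 2934. In Het 24 of the 25 were at an FPKM of at least 1, in KO 16 and in WT 13. Olfm4 and Orm1 were listed at 0 in KO, Olfm4 and Chi3l1 in WT and none in Het. In the Gr1+Mac1+ libraries the same sum was 172259 (KO), 143167 (Het) and 153039 (WT). The test between fractions was therefore also run without the Het pool, and for some of the genes and lists those values are given as well. In these bulk samples fewer cells of a type and less RNA per cell cannot be told apart.

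Of the 10 loci, 5 lie on chromosome 10 (mm10). Prtn3 (chr10:79879667-79883172) and Elane (chr10:79886312-79888216) are neighbours, as are Lyz2 (chr10:117277541-117282272) and Lyz1 (chr10:117287795-117292868), and Srgn spans chr10:62494428-62507755. Mpo lies at chr11:87793784-87804412, Ctsg at chr14:56099881-56102574, Ctsc at chr7:88278093-88310875, Ms4a3 at chr19:11629497-11640834 and Serpinb1a at chr13:32842092-32851185. Bases before the gene start are shown for the genes of myeloperoxidase, the 3 serine proteases and the lysozymes, which include both neighbouring pairs. They were read from the RefSeq promoter table (GRCm38.p6) and cut where a GENCODE exon of the gene begins, each 5′ to 3′ on the strand of the gene. Capitals mark letters searched on both strands: TTNNGNAA for C/EBP, GAGGAA for PU.1, TGTGGT for RUNX and AACNG for MYB, factors known to act on granule genes.
Mpo, chr11:87793534-87793580, plus strand: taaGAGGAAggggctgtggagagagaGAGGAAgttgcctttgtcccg
Elane, chr10:79886062-79886246, plus strand: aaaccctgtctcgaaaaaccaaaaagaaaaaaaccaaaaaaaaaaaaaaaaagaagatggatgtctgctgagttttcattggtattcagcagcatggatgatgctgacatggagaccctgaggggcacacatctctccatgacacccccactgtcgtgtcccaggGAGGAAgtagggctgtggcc
Prtn3, chr10:79879417-79879613, plus strand: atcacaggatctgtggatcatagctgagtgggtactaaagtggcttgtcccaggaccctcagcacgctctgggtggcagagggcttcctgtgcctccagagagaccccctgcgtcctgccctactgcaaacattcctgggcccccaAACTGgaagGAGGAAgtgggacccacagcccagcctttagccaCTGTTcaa
Ctsg, chr14:56102575-56102824, minus strand: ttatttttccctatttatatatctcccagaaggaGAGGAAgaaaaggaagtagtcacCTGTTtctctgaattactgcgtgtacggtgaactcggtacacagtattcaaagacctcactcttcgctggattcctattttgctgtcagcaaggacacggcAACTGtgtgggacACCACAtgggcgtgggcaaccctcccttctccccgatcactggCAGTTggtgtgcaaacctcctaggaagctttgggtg
Lyz1, chr10:117292869-117293118, minus strand: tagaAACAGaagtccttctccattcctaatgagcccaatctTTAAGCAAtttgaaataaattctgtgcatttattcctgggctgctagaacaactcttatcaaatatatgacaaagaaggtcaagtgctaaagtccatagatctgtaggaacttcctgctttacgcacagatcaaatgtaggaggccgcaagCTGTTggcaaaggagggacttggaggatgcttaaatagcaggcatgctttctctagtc
Lyz2, chr10:117282322-117282522, minus strand: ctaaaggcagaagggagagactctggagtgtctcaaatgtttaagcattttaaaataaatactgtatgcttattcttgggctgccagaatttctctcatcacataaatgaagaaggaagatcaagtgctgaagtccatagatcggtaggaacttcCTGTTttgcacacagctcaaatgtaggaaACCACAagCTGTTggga
In the whole 250 bases before the start, GAGGAA occurs in 5 of the 9 genes that the table holds, Mpo, Elane, Prtn3, Ctsg and Ctsc, against 23.3% of all 32851 promoters of that length. Mpo holds it at -247 and at -224 from the RefSeq start, Elane at -85, Prtn3 at -95 and Ctsg at -216. The letters shown for Mpo end at -204, since its GENCODE transcript starts at 87793581, ahead of the RefSeq start at 87793784. Both Mpo matches lie just before that GENCODE start. TTNNGNAA occurs in the other 4, Srgn, Ms4a3, Lyz1 and Lyz2, against 36.8% of all promoters. Its match in Lyz1 is at -209 and that in Lyz2 at -55 to -48, where the letters shown end at -50, so it is not in capitals; it overlaps a MYB match. Srgn has a pair of starts in the table. The one at 62507757, beside the end of its locus, holds TTNNGNAA and the RUNX letters and was counted, and the one at 62527445 holds neither. The RUNX letters occur in 3 of the 9 against 14.0%, and the MYB letters in 8 of the 9 against 74.2%. The 250 bases before Lyz1 and Lyz2 are 79.4% identical and those before Elane and Prtn3 49.8%. These matches describe letters only.

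Myeloperoxidase, the enzyme that makes hypochlorous acid from hydrogen peroxide and chloride, was the most abundant of the 10 in 2 of the 3 Lin- libraries. Mpo stood at 211 FPKM in KO (206 to 216), 216 in Het (211 to 221) and 187 in WT Lin- cells (182 to 192). In Gr1+Mac1+ cells it was at 1549 FPKM in KO, 1554 in Het and 1286 in WT. The Lin- values were all far below the Gr1+Mac1+ values, and the 3 pools gave nearly the same proportion between fractions: 13.6% in KO (13.3 to 14.0), 13.9% in Het (13.5 to 14.3) and 14.5% in WT (14.2 to 15.0). The log2 difference, Lin- minus Gr1+Mac1+ on the log2(FPKM + 1) scale, was -2.83 (SE 0.07, n = 3 pools, adjusted p = 0.000124 by limma). Of the 50-base words of the Mpo transcript 12.0% lie also in Gm11505, a GENCODE antisense gene within the Mpo locus; whether fragments were counted by strand is not given in the sources used here.

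The 3 serine proteases of the granule, neutrophil elastase (Elane), proteinase 3 (Prtn3) and cathepsin G (Ctsg), cleave microbial and matrix proteins. Elane was at 31.1 FPKM in KO (27.3 to 34.8), 84.8 in Het (78.7 to 90.8) and 31.7 in WT Lin- cells (28.1 to 35.3), and at 1283 in KO, 1106 in Het and 1045 FPKM in WT Gr1+Mac1+ cells. The Het Lin- value was above the intervals of the other two Lin- libraries, which overlapped each other. Prtn3 was at 49.7 FPKM in KO, 72.2 in Het and 43.8 in WT Lin- cells, and at 805, 768 and 729 FPKM in KO, Het and WT Gr1+Mac1+ cells. Ctsg was at 46.1 FPKM in KO, 55.6 in Het and 47.7 in WT Lin- cells, and at 499, 484 and 430.0 FPKM in KO, Het and WT Gr1+Mac1+ cells. The fractions did not overlap for any of the 3, and the log2 differences were -4.67 for Elane (SE 0.34), -3.80 for Prtn3 (SE 0.15) and -3.22 for Ctsg (SE 0.09), with limma adjusted p of 0.000329, 0.000124 and 0.000124. Without the Het pool the Elane difference was -5.16.

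The order of the proteases, compared by FPKM and so per kilobase, differed between the fractions. In Gr1+Mac1+ cells Elane exceeded Prtn3 by a ratio of FPKM of 1.59 in KO, 1.44 in Het and 1.43 in WT. In Lin- cells the ratio was 0.626 in KO (0.538 to 0.728) and 0.723 in WT (0.624 to 0.838), below 1, and 1.17 in Het (1.06 to 1.30). Elane and Prtn3, whose starts lie close together on one chromosome, were thus not at a fixed ratio. Elane over Ctsg was likewise 0.675 in KO, 1.52 in Het and 0.665 in WT Lin- cells, against 2.57 in KO, 2.28 in Het and 2.43 in WT Gr1+Mac1+ cells. Ctsg over Mpo varied less, at 0.218 in KO, 0.258 in Het and 0.255 in WT Lin- cells, against 0.322 in KO, 0.312 in Het and 0.334 in WT Gr1+Mac1+ cells.

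Cathepsin C (Ctsc, dipeptidyl peptidase I) activates the 3 serine proteases by removing a short N-terminal peptide. It had the lowest FPKM of the 10 in Gr1+Mac1+ cells, at 53.0 in KO, 56.7 in Het and 53.8 in WT. In Lin- cells Ctsc was at 6.83 FPKM in KO (5.84 to 7.81), 9.20 in Het (8.09 to 10.3) and 6.51 in WT (5.59 to 7.43). Its log2 difference was -2.72 (SE 0.10, limma adjusted p = 0.000124), close to that of Mpo. The Lin- level was 12.9% of the Gr1+Mac1+ level in KO, 16.2% in Het and 12.1% in WT.

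Serglycin (Srgn) is the proteoglycan core whose sulfated side chains bind the basic granule proteins and are needed to store elastase. It was at 197 FPKM in KO (187 to 206), 199 in Het (190.3 to 209) and 175 in WT Lin- cells (166 to 183), and at 571 in KO, 447 in Het and 503 FPKM in WT Gr1+Mac1+ cells. It showed the smallest difference between fractions of the 10, with a log2 of -1.40 (SE 0.10, limma adjusted p = 0.000313). The Lin- level was 34.5% of the Gr1+Mac1+ level in KO (32.6 to 36.4), 44.6% in Het (42.2 to 47.1) and 34.7% in WT (32.9 to 36.7).

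Ms4a3, a membrane protein of the CD20-like family found on early granulocyte and monocyte precursors, and Serpinb1a, a cytosolic inhibitor of elastase, proteinase 3 and cathepsin G, were low in Lin- cells. Ms4a3 was at 5.69 FPKM in KO (4.18 to 7.20), 14.5 in Het (12.1 to 16.8) and 5.91 in WT Lin- cells (4.44 to 7.38), against 244, 200.3 and 204 FPKM in KO, Het and WT Gr1+Mac1+ cells. Serpinb1a was at 9.80 FPKM in KO (8.44 to 11.2), 19.7 in Het (17.8 to 21.6) and 9.12 in WT Lin- cells (7.87 to 10.4), against 241, 218 and 214 FPKM in KO, Het and WT Gr1+Mac1+ cells. For both genes the Het Lin- value lay above the KO and WT Lin- intervals. The log2 differences between fractions were -4.59 for Ms4a3 (SE 0.31) and -4.10 for Serpinb1a (SE 0.24), with limma adjusted p of 0.000274 and 0.000197. Without the Het pool the Ms4a3 difference was -5.04 and that of Serpinb1a -4.45. Fragments of Serpinb1a may be split with close copies: 3.42% of its 50-base words recur in other genes, and its coding sequence is 90.1% identical to that of Serpinb1b.

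The lysozyme genes Lyz1 and Lyz2 encode enzymes that cut bacterial cell walls; Lyz2 is the form typical of myeloid cells and Lyz1 that of Paneth cells of the gut. Lyz2 was by far the most abundant of the 10 in Gr1+Mac1+ cells, at 7067 FPKM in KO, 6722 in Het and 6901 in WT, where it ranked 6, 7 and 8 among all genes of the library. In Lin- cells it was at 36.5 FPKM in KO (32.8 to 40.2), 420 in Het (407 to 432) and 19.0 in WT (16.4 to 21.5). Lyz1 was at 6.38 FPKM in KO (4.99 to 7.78), 71.2 in Het (66.6 to 75.7) and 2.60 in WT Lin- cells (1.75 to 3.44), and at 1322, 1103 and 1234 FPKM in KO, Het and WT Gr1+Mac1+ cells. None of the 3 Lin- intervals overlapped for either gene, with Het highest and WT lowest. The lowest of these values, Lyz1 in WT Lin- cells, rests on 38 implied fragments.

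The log2 differences between fractions were -6.66 for Lyz2 (SE 0.92, limma adjusted p = 0.0024) and -6.61 for Lyz1 (SE 0.93, limma adjusted p = 0.00252). Their errors were the widest of the 10. Without the Het pool they were -8.00 (SE 0.24) and -7.95 (SE 0.25), and without the WT pool -5.78 and -5.71 (limma adjusted p = 0.0167 and 0.0169); both moves exceed 1.5 times as a fold. Lyz1 over Lyz2 was 0.175 in KO, 0.170 in Het and 0.137 in WT Lin- cells, against 0.187 in KO, 0.164 in Het and 0.179 in WT Gr1+Mac1+ cells. The coding sequences are 95.1% identical (425 of 447 bases), and 16.1% of the 50-base words of Lyz1 recur in Lyz2, so how fragments were divided between the pair is uncertain and the ratio may in part be set by that division.

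**Figure D1:**
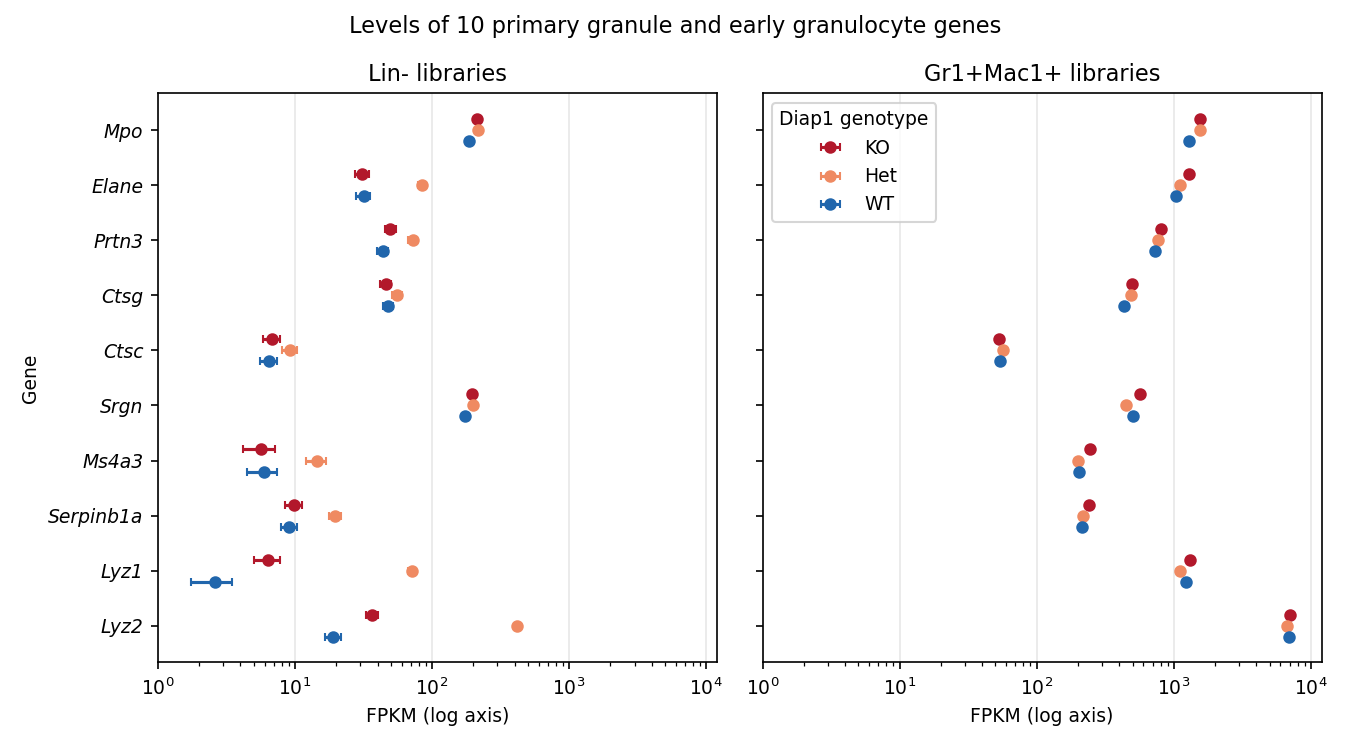
FPKM of each gene (log axis) in the Lin- libraries (left) and the Gr1+Mac1+ libraries (right); points are single libraries, KO above Het above WT in each row, and bars are the deposited intervals. The Het point lies far to the right of KO and WT for Lyz1 (71.2 against 6.38 and 2.60 FPKM) and Lyz2 in Lin- cells, while the 3 points nearly coincide in Gr1+Mac1+ cells.

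By limma across 11572 genes with a mean FPKM of at least 1, all 10 were lower in Lin- cells at an adjusted p under 0.05, where 30.3% of all genes tested were lower and 51.5% higher. The 10 differences had a median of -3.95, and that of all genes was 0.33. With that median taken off, the 10 ran from -6.99 for Lyz2 to -1.74 for Srgn. After rescaling the libraries by the median ratio of genes, 4417 genes were higher and 4595 lower, in place of 5957 and 3507, and all 10 stayed lower. They were lower also without the Het pool, where the median of the 10 was -4.23 and that of the whole set 0.33. The 3 pools are the only repeats here and each has its own genotype, so an interaction of genotype and fraction enters the error of the test, and n counts pools.

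Levels in Gr1+Mac1+ cells ran, as mean ± SD over the 3 pools, from Lyz2 at 6897 ± 173 FPKM to Ctsc at 54.5 ± 1.94. Between them came Mpo (1463 ± 153), Lyz1 (1219.7 ± 110.4), Elane (1144 ± 124), Prtn3 (767 ± 38.2), Srgn (507 ± 61.8), Ctsg (471 ± 36.2), Serpinb1a (224 ± 14.5) and Ms4a3 (216 ± 23.9). The pools' ranges overlapped between Mpo and Lyz1, Lyz1 and Elane, Srgn and Ctsg, and Serpinb1a and Ms4a3. Compared within each library, Mpo was above Lyz1 in all 3 pools, whereas the order within the other pairs changed from pool to pool. In Lin- cells the pools differed much more. The highest over the lowest library was 1.15 for Mpo, 1.14 for Srgn and 1.21 for Ctsg, but 2.73 for Elane, 2.54 for Ms4a3, 22.1 for Lyz2 and 27.4 for Lyz1, and every neighbour in the Lin- order overlapped the next.

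As a share of the Gr1+Mac1+ level, the 10 genes formed a graded series. Srgn was at 34.5% in KO, 44.6% in Het and 34.7% in WT. Mpo, Ctsc and Ctsg lay between 9.24% and 16.2% in the 3 pools, and Prtn3 was at 6.17% in KO, 9.41% in Het and 6.02% in WT. Serpinb1a was at 4.07% in KO, 9.05% in Het and 4.26% in WT. Elane was at 2.42% in KO (2.14 to 2.74), 7.66% in Het (7.12 to 8.25) and 3.04% in WT (2.70 to 3.41). Ms4a3 was at 2.34% in KO, 7.22% in Het and 2.90% in WT. Lyz2 was at 0.516% in KO (0.466 to 0.572), 6.24% in Het (6.06 to 6.43) and 0.275% in WT (0.240 to 0.315). Lyz1 was at 0.483% in KO, 6.45% in Het and 0.210% in WT.

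The medians of the 10 shares were 5.12% in KO, 9.23% in Het and 5.14% in WT, where the medians over the 11572 genes were 129.6% in KO, 129.9% in Het and 129% in WT. In KO and WT the shares spanned 0.483% to 34.5% and 0.210% to 34.7%. In Het they spanned 6.24% to 44.6%. Together the 10 genes made up 0.0989% (KO), 0.193% (Het) and 0.0852% (WT) of the summed FPKM in Lin- cells, against 1.96% (KO), 1.97% (Het) and 1.86% (WT) in Gr1+Mac1+ cells.

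**Figure D2:**
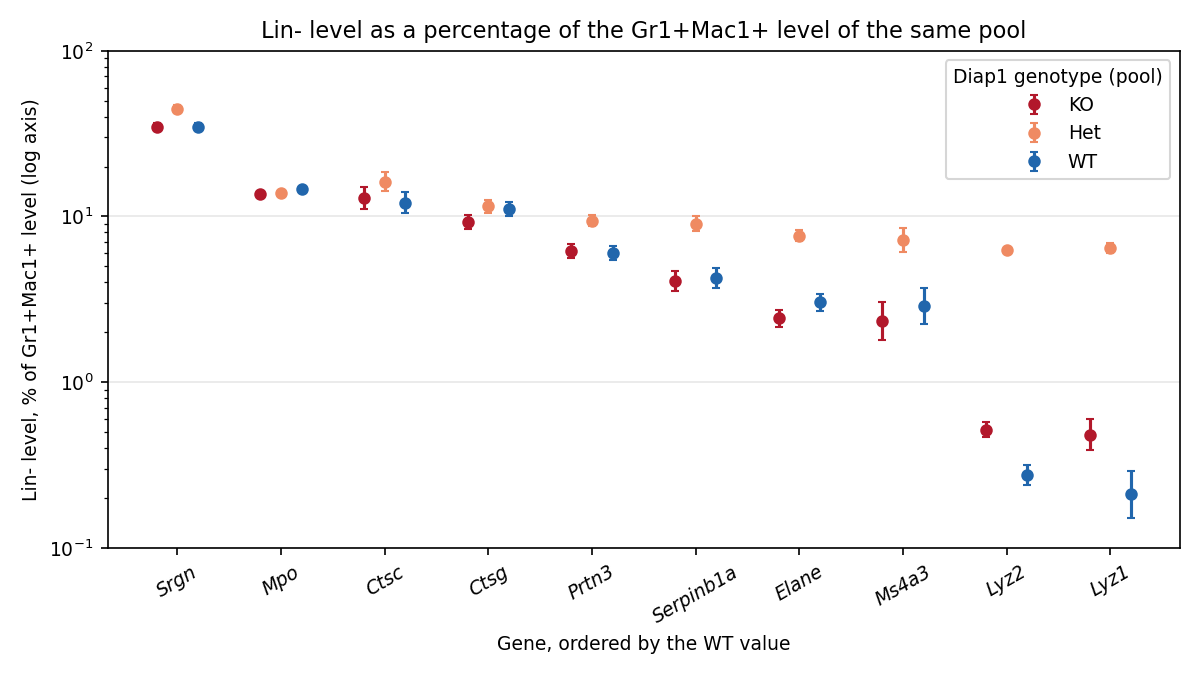
Lin- level as a percentage of the Gr1+Mac1+ level of the same pool (log axis) for each gene, ordered by the WT value, with KO left of Het and WT; bars are intervals from counting error. KO and WT fall together down to 0.483% and 0.210% for Lyz1, whereas no Het point is below 6.24%.

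Genotypes within a fraction rest on 1 library each, so no p-value is given. A gene was counted as different where the log2 ratio on the FPKM + 1 scale was at least 2-fold, the higher library had an FPKM of at least 5 and the deposited intervals did not overlap. In KO against WT Lin- cells, 1 of the 10 was higher and none lower, where 0.182% of 8262 genes were higher and 0.0484% lower. This was Lyz1, with a log2 ratio of 1.04 (counting SE 0.22). Lyz2, at 36.5 FPKM in KO against 19.0 in WT, fell just short with 0.91 (counting SE 0.12), and the next largest were Prtn3 at 0.18 and Mpo and Srgn at 0.17 each. Elane at -0.03, Ctsg at -0.05 and Ms4a3 at -0.05 were on the other side of 0, and the median of the 10 was 0.13 against -0.01 for all genes tested. The Lyz1 call is lost with a pseudocount of 5 and after rescaling by the median ratio. In the same libraries the summed FPKM of 16 monocyte markers was 104 in KO and 66.1 in WT, with 12 and 11 of them at an FPKM of at least 1 and Emr4 listed at 0 in WT; their part in the lysozyme values was not tested.

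In Het against WT Lin- cells all 10 log2 ratios were above 0, with a median of 0.87 against -0.01 for all genes tested. Of the 10, 5 passed as higher and none as lower, where 1.7% of 8369 genes were higher and 0.0836% lower. Lyz2 (4.40, counting SE 0.09) and Lyz1 (4.33, counting SE 0.18) had the largest ratios, followed by Elane at 1.39, Ms4a3 at 1.16 and Serpinb1a at 1.03. Prtn3 was at 0.71 and Ctsc at 0.44. Ctsg at 0.22, Mpo at 0.21 and Srgn at 0.19 were within 1.17-fold of WT. In KO against Het Lin- cells 4 of the 10 were lower and none higher, where 1.52% of 8375 genes were lower and 0.119% higher. These were Lyz2 (-3.49), Lyz1 (-3.29), Elane (-1.42) and Ms4a3 (-1.21), with Serpinb1a just short at -0.94. The last comparison and that of Het with WT share the Het library.

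Markers of later granules and of several other cell types were also higher in the Het than in the WT Lin- library. The summed FPKM of those 25 genes, 8501 in Het against 113 in WT Lin- cells, stands with the library facts. The sum of 17 mature neutrophil markers was 78.5 (KO), 211 (Het) and 68.8 FPKM (WT) in Lin- cells, with Fpr1 and Fcgr4 listed at 0 in KO and Fpr1 in WT. The sum of 16 monocyte markers was 104 (KO), 201 (Het) and 66.1 FPKM (WT) in Lin- cells, with Ly6c2 at 30.5 (KO), 82.9 (Het) and 22.2 (WT), Lgals3 at 4.78 (KO), 17.8 (Het) and 1.31 (WT), and 12, 13 and 11 of the 16 at an FPKM of at least 1. The sum of 16 eosinophil, basophil and mast cell markers was 78.1 (KO), 532 (Het) and 62.0 FPKM (WT), none at 0, and the eosinophil granule gene Prg2 alone was at 15.1 (KO), 262 (Het) and 10.1 FPKM (WT). The mast cell protease gene Cpa3 was at 9.04 (KO), 9.67 (Het) and 10.2 FPKM (WT), and Fcer1a, a receptor chain of mast cells and basophils, at 1.37 (KO), 0.558 (Het) and 0.983 FPKM (WT). The sum of 10 B cell markers was 22.6 (KO), 65.6 (Het) and 32.6 FPKM (WT), none at 0. Most of it was Cd74, an MHC class II chain, at 11.5 (KO), 36.9 (Het) and 18.1 (WT). Within this list Pax5, at 0.381 FPKM in Het against 0.732 in WT, and Vpreb1, at 0.271 against 0.782, were lower in Het. The other genes of the list were higher in Het than in WT. The sum of 8 megakaryocyte markers was 241 (KO), 494 (Het) and 358 FPKM (WT). That of 10 T and NK cell markers was lower in Het than in WT, at 13.6 (KO), 16.3 (Het) and 24.1 FPKM (WT). The part of such cells in the Het values of the 10 was not tested.

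The 10 genes can be set beside those markers on a common scale, by dividing the Lin- difference from WT by the Gr1+Mac1+ level of the same pool. In Het this was 6.22% for Lyz1 (± 0.418, counting error), 5.96% for Lyz2 (± 0.186), 5.53% for Srgn (± 2.77), 4.87% for Serpinb1a (± 1.03), 4.80% for Elane (± 0.634), 4.74% for Ctsc (± 2.55), 4.27% for Ms4a3 (± 1.38), 3.70% for Prtn3 (± 0.880), 1.85% for Mpo (± 0.463) and 1.64% for Ctsg (± 1.29). The median of the 10 was 4.77%. The 23 secondary and tertiary granule genes with an FPKM of at least 50 in Het Gr1+Mac1+ cells had a median of 5.41%, with the middle 50% between 5.15% and 5.95% and all between 4.01% and 6.85%. Lyz1, Srgn, Serpinb1a, Elane, Ctsc, Ms4a3 and Lyz2 fell within that full range, and Prtn3, Mpo and Ctsg below it. The errors of Srgn and Ctsc spanned the whole range, and that of Prtn3 reached into it. The Srgn value rests on the WT library, since Srgn was at 197 FPKM in KO and 199 in Het Lin- cells. In KO the same measure was near 0 for most of the 10, with a median of 0.285%, and the 23 genes had a median of 0.0106%. Srgn at 3.87% (± 2.19) and Mpo at 1.55% (± 0.468) stood highest in KO.

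**Figure D3:**
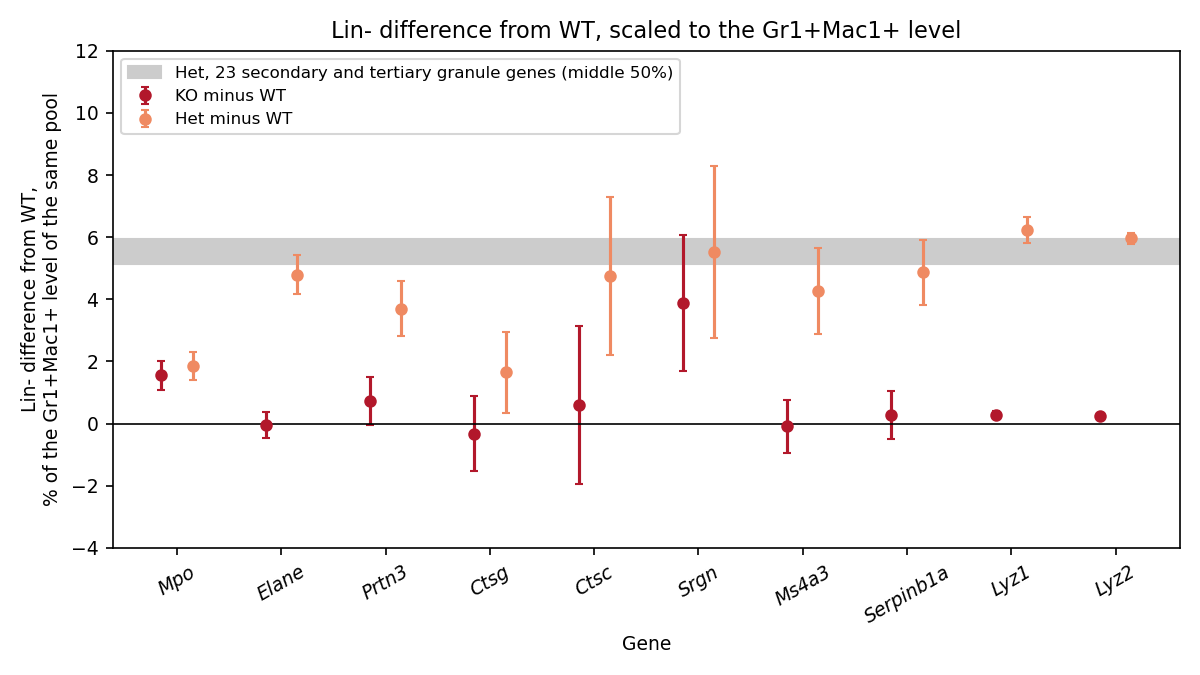
Difference of the Lin- FPKM from WT as a percentage of the Gr1+Mac1+ FPKM of the same pool, for KO (left point) and Het (right point) of each gene; bars are counting error and the grey band is the middle 50% of 23 secondary and tertiary granule genes in Het. The Het point for Lyz1 (6.22%) lies just above the band and that for Lyz2 (5.96%) at its upper edge, both with bars that reach into it. Those for Mpo and Ctsg (1.85% and 1.64%) lie far below it.

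In Gr1+Mac1+ cells no gene of the 10 passed between any pair of genotypes. For KO against WT 0.0599% of 8353 genes were higher and 0.132% lower, for Het against WT 0.048% of 8326 were higher and 0.132% lower, and for KO against Het 0.0838% of 8355 were higher and 0.0958% lower. The differences were small but, between KO and WT, mostly in 1 direction. Of the 10, 9 had a positive log2 ratio, with a median of 0.18 against 0.01 for all genes tested; 62.9% of the 1526 genes with an FPKM of at least 50 were positive too. Elane was at 0.30 (counting SE 0.02), Mpo at 0.27 (counting SE 0.01), Ms4a3 at 0.25, Ctsg at 0.21, Srgn at 0.18, Serpinb1a at 0.17, Prtn3 at 0.14, Lyz1 at 0.10, Lyz2 at 0.03 and Ctsc at -0.02. For 9 of the 10 the deposited intervals of KO and WT were apart, as for 25.4% of the genes at 50 FPKM or more, and counting error leaves out any spread between mice or library preparations. With the summed FPKM made equal, 8 of the 10 were positive and Lyz2 was at -0.01.

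For Het against WT Gr1+Mac1+ cells 6 of the 10 were positive, with a median of 0.05; with the summed FPKM made equal 8 were positive, with a median of 0.12 against 0.07 for all genes tested. Mpo was at 0.27 and Ctsg at 0.17, and Srgn at -0.17 and Lyz1 at -0.16 were the lowest. Mpo was thus at 1549 FPKM in KO and 1554 in Het, both above 1286 in WT, while Srgn was highest in KO and lowest in Het. The KO and Het comparisons share the WT library. Erythroid markers moved in these libraries as well, with a sum over 14 genes of 5341 (KO), 5083 (Het) and 7070 FPKM (WT), none at 0. Most of each sum came from the globin genes Hbb-b1, at 2527 (KO), 4013 (Het) and 4311 (WT), and Hbb-b2, at 2332, 506 and 1919. Hbb-b2 was higher in KO than in WT, and the other genes of the list were lower. The part of erythroid markers in the values of the 10 was not tested.

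**Figure D4:**
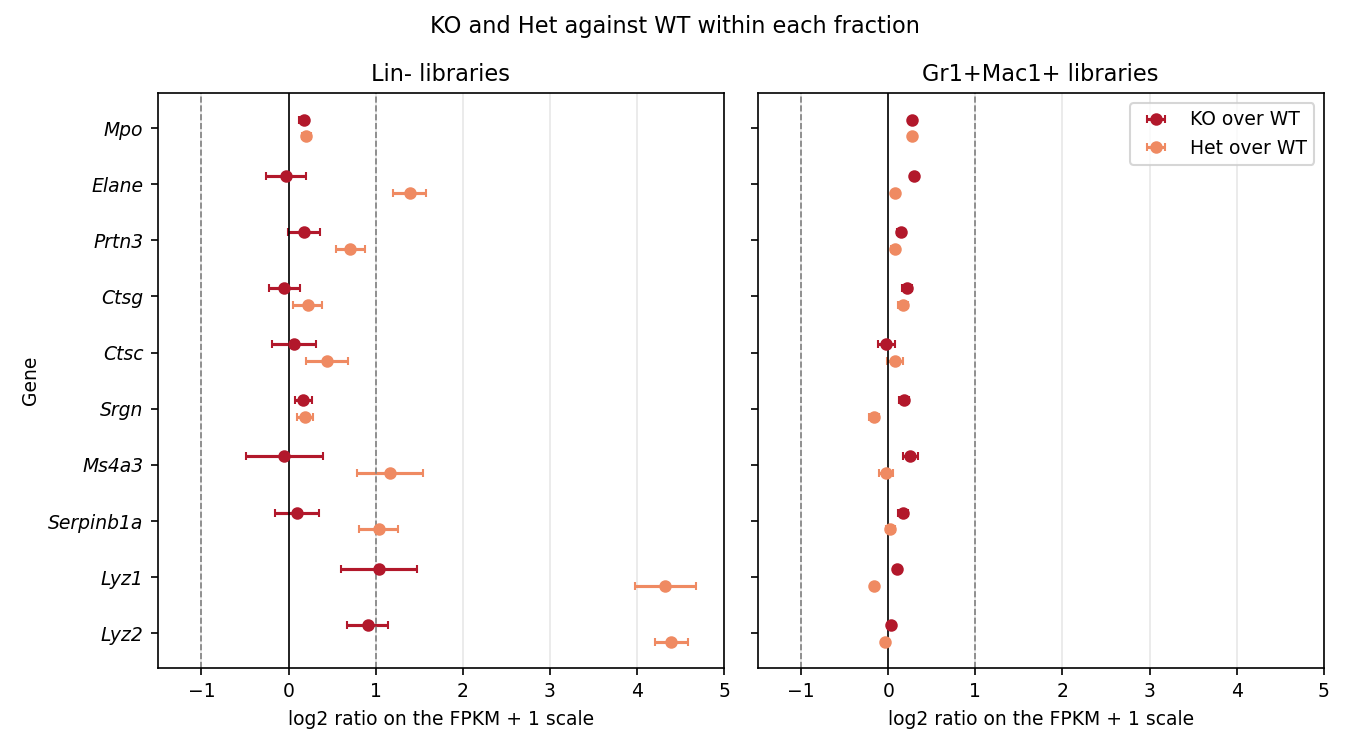
Log2 ratio on the FPKM + 1 scale of KO over WT and of Het over WT for each gene, in Lin- cells (left) and Gr1+Mac1+ cells (right); bars span 2 counting SEs each way and dashed lines mark 2-fold. In Lin- cells the Het ratios reach 4.40 for Lyz2, whereas in Gr1+Mac1+ cells all points lie between -0.17 and 0.30.

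The profiles of the 10 over the 6 libraries lay at graded distances from each other. By the root mean square difference of centred log2(FPKM + 1) values, Lyz1 and Lyz2 were closest (0.0841). Then came Elane and Ms4a3 (0.0880), Mpo and Ctsc (0.145), Prtn3 and Serpinb1a (0.195), and Mpo and Ctsg (0.211). The nearest of the 10 to Srgn was Ctsc (0.678). Elane and Prtn3 differed by 0.513 and Srgn and Lyz2 by 2.93, the farthest pair. Among 3729 other genes the nearest to Mpo were Cd72 (0.0522) and Tbc1d10c (0.0772), and to Elane Itgb2 (0.0778), the integrin chain that pairs with Mac1, and Il1f9 (0.0994). Anxa3 was near Serpinb1a (0.0904). Coro1a (0.0629), an actin-binding protein of leukocytes, and Rogdi (0.0615) were nearest to Prtn3, Adssl1 (0.0646) and Id2 (0.0838) to Ctsg, and Ifi27l2a (0.0947) and Cd300lb (0.107) to Ms4a3. Fos (0.0388) and Kif21b (0.0530) were nearest to Ctsc, and Tmed3 (0.0505) was near Srgn. The lysozyme genes had no neighbour as close. Chi3l1 was at 0.220 from Lyz2 and 0.245 from Lyz1, followed by Fcnb for Lyz2 (0.226) and Ear10 for Lyz1 (0.288). All of these distances are over 6 libraries and include the Het Lin- library.

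Genes next to the clustered loci differed in direction. Within 50 kb of Prtn3 and Elane, Ptbp1, a splicing regulator, was higher in Lin- cells, with 266 (KO), 253 (Het) and 279 FPKM (WT) against 109, 121 and 109.5 FPKM in KO, Het and WT Gr1+Mac1+ cells, a log2 difference of 1.22 (limma adjusted p = 0.000259). Med16, a Mediator subunit, was higher by 0.43 (limma adjusted p = 0.00571). Cfd, which encodes the serine protease complement factor D and starts 2636 bases past Elane, was at or near 0, with at most 0.451 FPKM in any library. Arid3a, a DNA-binding protein, was lower in Lin- cells by a log2 of -3.00 (limma adjusted p = 0.000124), C030046I01Rik by -1.40 and BC005764 by -0.43 (limma adjusted p = 0.000141 and 0.0148). Kiss1r, E130317F20Rik, 9130017N09Rik and Bc1 had less than 1 FPKM in every library. Near the lysozyme pair, 9530003J23Rik was listed at 0 in 5 of the 6 libraries.

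Other contents of the primary granule and the lysosome were lower in Lin- cells by less. Of 24 such genes tested, 21 were lower and none higher, with a median log2 difference of -1.44 against 0.33 for all genes, and 19 were lower without the Het pool. Cd68 (-3.52, SE 0.23) and Cd63 (-3.49, SE 0.27), membrane proteins of lysosomes and primary granules, had the largest differences, followed by the progranulin gene Grn (-3.16) and Prss57 (-3.11), a further granule serine protease. The lysosomal genes Psap (-2.78) and Ctsd (-0.78) were the most abundant beside Cd63. Gusb (0.05), Glb1 (0.15) and Aga (0.10), hydrolases found in all cells, did not pass (limma adjusted p = 0.56, 0.0854 and 0.555). Bpi, a primary granule protein of human neutrophils, was not tested, being listed at 0 in 5 of the 6 libraries. In Het against WT Lin- cells Cd68 (1.35) and Cd63 (1.08) were higher by the size rule.

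Among inhibitors that act on granule and lysosomal proteases, 15 of 18 tested were lower in Lin- cells and 3 higher (median -2.18). The lower ones were led by the stefins Stfa2l1 (-5.79, SE 0.92), Stfa1 (-4.12) and Stfa2 (-4.06), cysteine protease inhibitors with near-identical copies, and by Slpi (-4.89, SE 0.45), the secretory inhibitor of elastase. Cystatin C (Cst3) was the most abundant, at 108 (KO), 107 (Het) and 95.6 FPKM (WT) in Lin- cells and 432 to 495 in Gr1+Mac1+ cells. Serpinb6b (0.89), Serpinb9 (0.65) and Serpina3g (0.89), further serpins, were higher in Lin- cells. Serpinb1a over Elane was 0.315 in KO, 0.233 in Het and 0.288 in WT Lin- cells, against 0.188 in KO, 0.197 in Het and 0.205 in WT Gr1+Mac1+ cells.

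Enzymes that build the chondroitin sulfate chains carried by serglycin were split, with 8 of 13 lower in Lin- cells, 7 without the Het pool, and 3 higher (median -0.46). The sulfotransferases Chst13 (-3.05), Chst3 (-2.76), Chst12 (-2.27) and Chst15 (-1.24) were the most lowered. Csgalnact2 (-0.95) and B3gat3 (-0.26), which act earlier in chain assembly, were lower by less, and B3galt6 (0.81), Xylt2 (0.38) and Chst11 (0.32) were higher. Granule biogenesis and sorting genes gave 11 of 27 lower, 10 higher and a median of -0.05. Lyst, mutated in the beige mouse, was lowest (-3.11), followed by Rab27a (-2.91), which serves granule release, and Sort1 (-2.81), a sorting receptor, with Hps3 at -1.41. Ap3s1 (-1.18) of the AP-3 adaptor and Lamtor2 (-0.29) were lower too, and the mannose 6-phosphate receptor gene M6pr was higher (0.61).

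Of 19 transcription factors active in promyelocytes that were tested, 14 were lower in Lin- cells and 4 higher (median -1.92); without the Het pool 12 were lower. Cebpe, which drives the step to secondary granules, was lowest (-5.50, SE 0.52), with 0.702 (KO), 6.50 (Het) and 0.284 FPKM (WT) in Lin- cells and 101 to 125 in Gr1+Mac1+ cells. The PU.1 gene, listed as Sfpi1 (-3.96), Cebpb (-3.89) and Mxd1 (-3.80), an antagonist of MYC, were lower as well, as was Egr1 (-1.70). Myb (1.10), a factor of immature progenitors, was higher in Lin- cells, as were Myc (2.37), Gata2 (1.33) and Cebpz (1.19), and Runx1 did not pass (0.06, limma adjusted p = 0.484). The secondary and tertiary granule genes, all 24 lower in Lin- cells, had a median of -6.74, or -8.12 without the Het pool. The lysozyme genes at -6.66 and -6.61, or -8.00 and -7.95 without it, were near those medians, and the other 8 genes were between -4.67 and -1.40.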

How the data were processed

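The deposited values are FPKM, each with bounds and a status, per the file headers. The submitters' processing notes name TopHat2 2.0.7, Cufflinks 2.0.2 and mm10, without saying what each tool did; the gene models are not stated there. FPKM values within a library compete for 1 total, and the most abundant genes take much of it: the 10 most abundant held 8.72% to 10.5% of the summed FPKM in Lin- and 25.1% to 27.8% in Gr1+Mac1+ libraries. The values are not counts. The bounds fit 2 Poisson standard deviations of a fragment number (60.9% to 63.3% of genes under 50 implied fragments gave a whole number within 0.05), and implied fragments and counting errors were taken from them, with no spread between mice.

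The test between fractions was run in limma 3.58.1 (R 4.3.3), with trend, on log2(FPKM + 1), genes with mean FPKM of at least 1, the pool as a block and Benjamini-Hochberg adjustment over 11572 genes. Per the labels' protocols 1 pool of mice gave both its fractions, which is the pairing; the fractions' deviations correlated by -0.03 (KO), -0.07 (Het) and 0.10 (WT) across genes. Genotypes were compared by the size rule given in the text, since there is 1 library per group; loci also needed status OK in both. Both procedures were tested on simulated data. The 10 genes, the gene lists and the alternatives were chosen with earlier results of these data known. Named genes are the 10, for each the 2 nearest profiles among genes with mean FPKM of at least 20, from each list up to 4 genes past the threshold with the largest difference and up to 3 of the most abundant, and all genes within 50 kb of the Elane and Prtn3 or the Lyz1 and Lyz2 loci; other list genes were named after their values were seen. For Serpinb1a and Srgn 1 of the 2 nearest profiles is not reported here. Locus starts were read as 0-based and are given 1-based. Figures were drawn with matplotlib 3.10.9, and tables were handled in Python 3.11.15 with pandas 2.3.3 and numpy 2.4.6.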

Additional observations from a re-analysis of the deposited data

How the results depend on the processing

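All 10 genes stayed lower in Lin- cells, with a limma adjusted p under 0.05, in every refit, 110 log2 differences in all. The refits covered pseudocounts (0.1 and 5), level filters, rescalings, left-out pools, no block and, added after seeing the data, status OK in all libraries. With no replicate block in place of the pairing by pool, 10 genes were lower and none (0) higher, and over all genes 6084 were higher and 3553 lower; the block changed no call of the 10. Leaving out a pool gave 5298 to 5667 genes higher and 3129 to 3353 lower. Leave-one-out fits rest on 2 pools, each assumed to vary like the others. The median share of the Gr1+Mac1+ level was 3.91% in KO, 7.04% in Het and 3.93% in WT after rescaling by the median ratio. As deposited it was 5.12% in KO, 9.23% in Het and 5.14% in WT. This rescaling divides each library by a single factor, so all shares of a pool move in the same proportion.

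Between genotypes the number of the 10 genes past the size rule changed as follows. For KO against WT Lin- cells it was 0 with a pseudocount of 5, at 3-fold and after median-ratio rescaling, and 2 at 1.5-fold. For Het against WT Lin- cells it was 3 with a pseudocount of 5, 6 at 1.5-fold (Prtn3 added) and 2 at 3-fold. For KO against Het Lin- cells it was 5 with a pseudocount of 0.1 and at 1.5-fold (Serpinb1a added), 3 with a pseudocount of 5 and 2 at 3-fold. In Gr1+Mac1+ cells it stayed 0 under every alternative run. Of 240 log2 ratios under other pseudocounts and rescalings 233 kept their sign; the 7 others were at most 0.0722 in size.

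Counts over all genes moved with the rule. In Lin- cells a pseudocount of 5 gave 10 (KO against WT), 91 (Het against WT) and 87 (KO against Het); 1.5-fold gave 85, 252 and 242; 3-fold 7, 91 and 77; no filter on low values 30, 255 and 242; and no interval criterion 105 for KO against WT and 208 for KO against Het. In Gr1+Mac1+ cells a pseudocount of 0.1 gave 28 (KO against WT) and 25 (KO against Het), and one of 5 gave 6 (KO against WT) and 7 (Het against WT). There 1.5-fold gave 116, 73 and 113 for KO against WT, Het against WT and KO against Het, 3-fold 5 and 5 for the comparisons with WT, no filter on low values 34, 26 and 40, and no interval criterion 95, 86 and 89. Lyz1 in WT Lin- cells, at 38 implied fragments, is the value that depth limits most.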
